A study of Mus musculus with 6 samples.

Results

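The genes described here were 10 genes of lysophosphatidic acid (LPA) and sphingosine-1-phosphate (S1P) signaling, measured by RNA-Seq in bone marrow mesenchymal stem cells (BM MSCs) of mice. They were *Enpp2*, *Plpp3*, *Lpar1*, *Lpar4*, *Lpar6*, *Sphk1*, *Spns2*, *S1pr1*, *S1pr2* and *S1pr3*, and they were picked by gene name from a table of 56980 genes. All 10 passed the low-count filter, which left 15190 genes for testing. The names were picked with the group comparison of these same samples known, so the difference of each of the 10 genes between the groups is given as a description. Counts of the 10 genes past a threshold are printed once, only to set them beside the share of all tested genes, and are no test of the 10 genes.

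Both groups consisted of female mice that underwent ovariectomy (OVX) at 8 weeks of age, a model of estrogen deficiency, and then received fecal microbiota transplantation (FMT) by gavage for 8 weeks after their own microbiota had been depleted with antibiotics. Donors were sedentary OVX mice for the TranspCtrl group (FMT-Ctrl in the labels) and OVX mice that had run on a treadmill for 8 weeks for the TranspExer group (FMT-Exer), so OVX, antibiotics and gavage were common to both groups. The comparison asked how feces of exercised donors changed gene expression in the recipients' BM MSCs. The 3 samples of each group were cultures of flushed femur and tibia marrow, obtained by adherence and washing over 7 days, with no sorting step described. The sources used here give no mouse strain, and they do not say whether each sample came from a separate animal or from a pool, so the errors below measure the spread between these samples, which may be technical.

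LPA and S1P are lipid messengers that act outside the cell through G protein-coupled receptors. Autotaxin, the secreted enzyme encoded by *Enpp2*, makes LPA from lysophosphatidylcholine, whereas S1P is made inside cells by sphingosine kinases and leaves them through transporters. Surface lipid phosphate phosphatases end the signal of both lipids, and in marrow S1P is best known for guiding lymphocytes and osteoclast precursors into the blood.

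Expression was given as CPM (read counts scaled to a common library total, with edgeR's TMM factors), as mean ± SD, and total counts ranged from 17647682 to 21319228 per sample. At these depths 3 counts, the floor used here, corresponded to between 0.141 and 0.17 CPM, which covers counting error only. TranspCtrl replicate 1 stood apart from its group. Its distance to the other TranspCtrl samples over all tested genes (Euclidean, log2 CPM) was 62.81 and 60.24, against 36.99 between these 2 samples and between 42.78 and 43.87 within the TranspExer group. Values without this sample are therefore given below. An exact permutation test (two-sided) on 3 samples per group could not go below p = 0.1 for any gene.

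*Enpp2* averaged 44.0 CPM in the TranspCtrl group and 5.30 CPM in the TranspExer group, whereas the exporter gene *Spns2* and the phosphatase gene *Plpp3* were higher in the TranspExer group without overlap between samples. Receptor genes differed less, with *S1pr2* higher and *Lpar1* lower without overlap, and *Lpar4*, *Lpar6* and *S1pr3* overlapping between the groups. By the thresholds used for differentially expressed genes (DEGs), an adjusted p-value of 0.05 in edgeR's quasi-likelihood test and an absolute fold change of 2, 1 of the 10 genes was upregulated (*Spns2*) and 1 downregulated (*Enpp2*), where 3.5% and 5.28% of all tested genes were. At the adjusted p-value alone, 3 of the 10 were higher and 2 lower, where 16.6% and 15.5% of all tested genes were. All TranspExer samples lay above all TranspCtrl samples for 4 of the 10 and below them for 3, where 27.2% and 25.1% of all tested genes did. Without TranspCtrl replicate 1 the DEG counts were again 1 and 1, but at the adjusted p-value alone 4 were higher and 3 lower, with *Lpar6* and *S1pr3* added, where 22.1% and 19.6% of all tested genes were. Only *Enpp2* was lower, and *Lpar1* was not, with the replicate number as a block. The same held without TranspCtrl replicate 3 or any 1 TranspExer sample. In these settings between 8.48% and 14.6% of all tested genes were lower. Since this comparison served to pick the genes, nothing was read from these counts. The median log2 fold change (TranspExer over TranspCtrl) was 0.09 over the 10 genes and -0.02 over all tested genes.

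**Figure D1:**
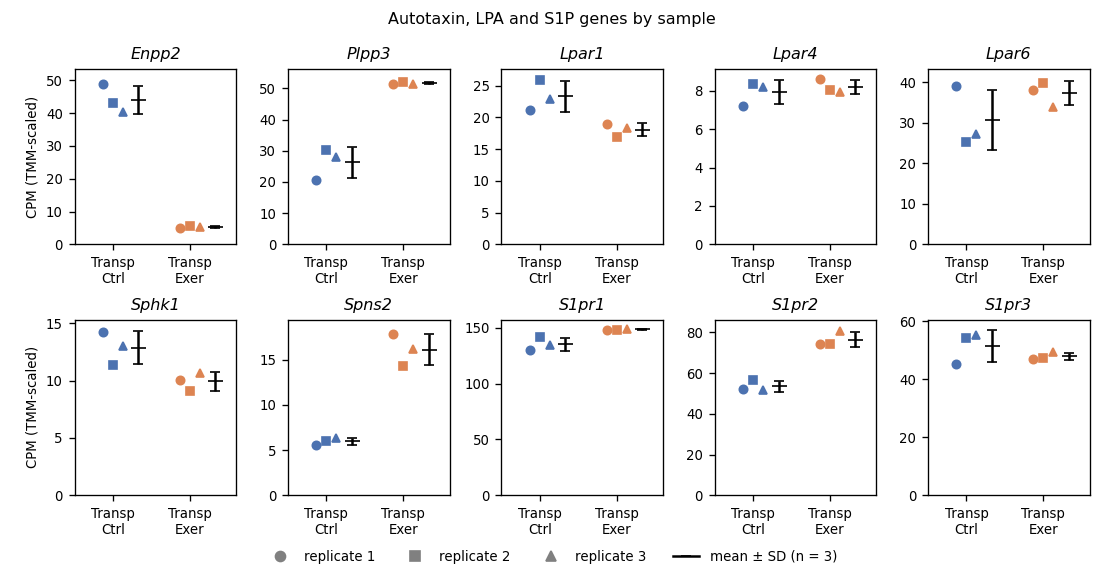
TMM-scaled CPM (vertical axes, each from 0) of the 10 genes in the 3 TranspCtrl samples (blue) and the 3 TranspExer samples (orange), with symbols for the replicate number and black bars for mean ± SD. *Enpp2* lay between 40.3 and 48.7 CPM in the TranspCtrl group and between 5.07 and 5.46 in the TranspExer group, while *Plpp3* and *Spns2* were higher in all TranspExer samples.

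Among the genes that set the level of extracellular LPA, *Enpp2* (ENSMUSG00000022425) was examined first. It lies on the minus strand of the GRCm38 assembly at chr15:54838901-54952892. Its level was 48.7, 42.9 and 40.3 CPM in TranspCtrl replicates 1, 2 and 3, and 5.07, 5.46 and 5.36 CPM in TranspExer replicates 1, 2 and 3. All TranspExer samples were thus far below all TranspCtrl samples, and the samples within each group lay close together. The means were 44.0 ± 4.31 and 5.30 ± 0.202 CPM (n = 3 each), and the log2 fold change was -3.05 (SE 0.11), with a 95% interval from -3.31 to -2.80. These levels rested on between 836 and 998 counts per TranspCtrl sample and between 94 and 108 per TranspExer sample, well above the floor. Of the 15190 tested genes, 104 had a lower log2 fold change than *Enpp2*. Without TranspCtrl replicate 1 the log2 fold change was -2.97. A noncoding gene on the opposite strand, *Gm26684*, shares 345 exon bases with *Enpp2* and had at most 7 counts in any sample.

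*Plpp3* (ENSMUSG00000028517, chr4:105157347-105232764, plus strand) encodes a membrane phosphatase that degrades LPA and S1P at the cell surface. It moved opposite to *Enpp2*. Its level was 20.7, 30.2 and 28.0 CPM in the TranspCtrl samples and 51.4, 52.0 and 51.4 CPM in the TranspExer samples. The lowest value belonged to TranspCtrl replicate 1, while the TranspExer samples were nearly equal. The means were 26.3 ± 5.00 and 51.6 ± 0.360 CPM, a log2 fold change of 0.97 (SE 0.13), just under the fold threshold of 2. Without TranspCtrl replicate 1 it was 0.83, and without TranspCtrl replicate 2 or 3 it was 1.09 and 1.02, above that fold.

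The contrary movement of the LPA-making and the lipid-degrading gene was also followed within each sample, where depth and scaling cancel. The ratio of *Enpp2* to *Plpp3* counts was 2.36, 1.42 and 1.44 in the TranspCtrl samples and 0.0987, 0.105 and 0.104 in the TranspExer samples. *Enpp2* had more counts than *Plpp3* in each TranspCtrl sample and far fewer in each TranspExer sample. The mean ratio was 1.74 ± 0.537 against 0.103 ± 0.00351, which is 16.9-fold lower in the TranspExer group. Which of 2 genes has more counts also depends on their lengths. In CPM per kb of annotated exon, *Plpp3* was above *Enpp2* in TranspCtrl replicates 2 and 3 (9.56 against 7.43 and 8.88 against 6.98). *Enpp2* was above *Plpp3* in TranspCtrl replicate 1 (8.43 against 6.54) and, with its longest transcript, in the TranspCtrl mean (14.2 against 8.32). In the TranspExer group *Enpp2* was lower with either length.

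The other enzymes that make or remove LPA were taken from a list of 18 genes, of which 16 were tested. None was an upregulated DEG and 1 was a downregulated DEG, where 3.5% and 5.28% of all tested genes were. At the adjusted p-value alone 5 were higher and 4 lower, where 16.6% and 15.5% of all tested genes were, and the lists below are read against the same shares. The downregulated DEG was *Pla1a*, which encodes a secreted phospholipase that yields lysophosphatidylserine. It fell from 16.8 ± 4.20 to 5.69 ± 0.897 CPM (log2 fold change -1.56, SE 0.20, edgeR adjusted p = 0.00118). In contrast, *Gdpd1*, whose product is a lysophospholipase D that can form LPA inside cells, rose from 20.6 ± 3.78 to 37.3 ± 0.565 CPM (log2 fold change 0.85, edgeR adjusted p = 0.00264). The related *Gdpd3* had a log2 fold change of -0.87 at an adjusted p = 0.0782 (edgeR) and did not pass.

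Of the remaining phosphatase genes of the family, only *Plpp5* passed the test. It fell from 44.1 ± 1.95 to 31.3 ± 2.95 CPM (log2 fold change -0.50, edgeR adjusted p = 0.00551). Log2 fold changes were 0.03 for *Plpp1* (edgeR adjusted p = 0.776), 0.26 for *Plpp2* (0.0524), 0.26 for *Plpp6* (0.118) and 0.87 for *Plpp7* (0.0735). No count was found for *Plpp4*. Of the enzymes that turn LPA into phosphatidic acid, *Agpat1*, *Agpat2*, *Agpat3* and *Agpat5* rose, with log2 fold changes of 0.71, 0.48, 0.57 and 0.39 (edgeR adjusted p between 0.00202 and 0.0299), and *Agpat4* fell by 0.38 on the log2 scale (0.023). The calls of *Agpat1* and *Agpat4* were lost when any TranspExer sample was left out (adjusted p between 0.073 and 0.101), and that of *Agpat5* without TranspExer replicate 2 or 3 (0.0516 each). *Gpam*, which makes LPA from glycerol-3-phosphate for lipid synthesis, also fell by 0.37 (edgeR adjusted p = 0.00978). The kinase gene *Agk* (-0.41, edgeR adjusted p = 0.0759) and the LPA phosphatase gene *Acp6* (-0.05, 0.740) did not pass. Leaving out 1 sample brought *Plpp2* (without TranspCtrl replicate 1, 0.044), *Gdpd3* (without TranspCtrl replicate 2, 0.044), *Plpp7* (without TranspExer replicate 1, 0.0305) and *Agk* (without TranspExer replicate 1, 0.0236) past the threshold of the edgeR adjusted p.

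**Figure D2:**
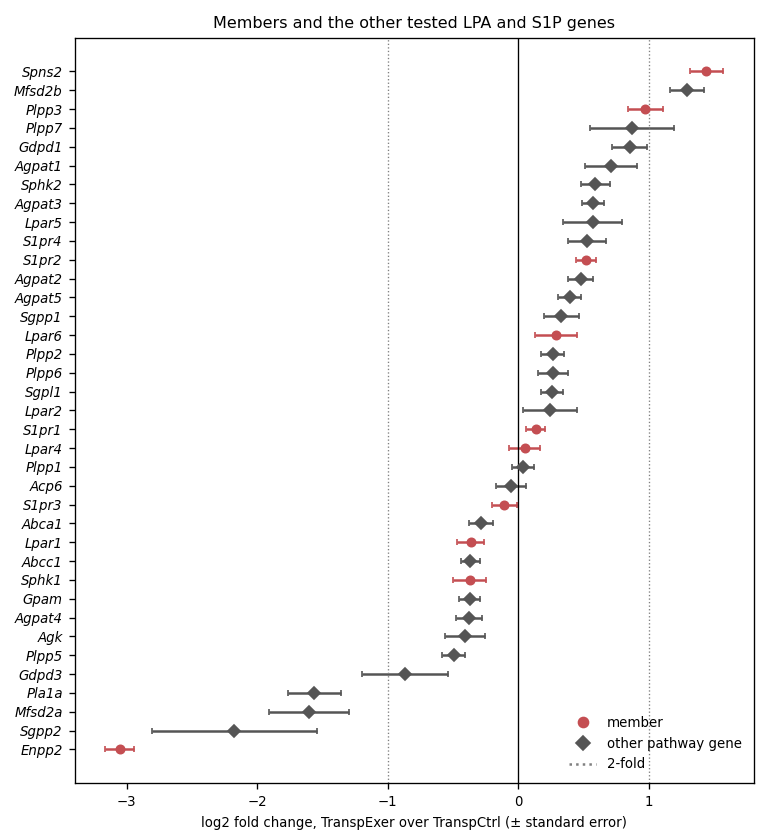
Log2 fold change, TranspExer over TranspCtrl (horizontal axis), with its standard error for the 10 picked genes (red circles) and the other tested genes of LPA and S1P synthesis, removal, transport and reception (grey diamonds), sorted by value; the dotted lines mark a fold change of 2. *Enpp2* (-3.05) and *Spns2* (1.44) stood at opposite ends, and most of the genes lay between the dotted lines.

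On the S1P side, *Sphk1* (ENSMUSG00000061878, chr11:116530925-116536674, plus strand) encodes sphingosine kinase 1, which forms S1P from sphingosine. Its level was 14.3, 11.3 and 13.0 CPM in the TranspCtrl samples and 10.04, 9.07 and 10.7 CPM in the TranspExer samples. The groups did not overlap, but the lowest TranspCtrl and the highest TranspExer sample lay close together. Means were 12.9 ± 1.46 and 9.93 ± 0.813 CPM, a log2 fold change of -0.37 (SE 0.13), or -0.29 without TranspCtrl replicate 1. Noncoding genes on the opposite strand of *Sphk1* (*Gm29292*) and *S1pr3* (*Gm32834*) had at most 3 counts in any sample, and *Mir3095* and *Gm12577*, inside *Lpar1*, had 0.

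*Spns2* (ENSMUSG00000040447, chr11:72451638-72489904, minus strand) encodes the transporter that releases S1P from endothelial cells. Its level was 5.52, 5.96 and 6.37 CPM in the TranspCtrl samples and 17.9, 14.4 and 16.1 CPM in the TranspExer samples. Each TranspExer sample was above every TranspCtrl sample by a wide margin. Means were 5.95 ± 0.426 and 16.1 ± 1.77 CPM, and the log2 fold change was 1.44 (SE 0.13), or 1.39 without TranspCtrl replicate 1. Of all tested genes, 250 had a higher log2 fold change. On the opposite strand *Mybbp1a*, with between 3064 and 3873 counts per sample, shares 131 exon bases with *Spns2*, and the sources do not state how strand was used in counting.

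Within a sample, the ratio of exporter to kinase counts (*Spns2* to *Sphk1*) was 0.387, 0.525 and 0.491 in the TranspCtrl samples and 1.78, 1.58 and 1.51 in the TranspExer samples. The exporter gene thus had fewer counts than the kinase gene in every TranspCtrl sample and more in every TranspExer sample. The mean ratio was 0.468 ± 0.0719 and 1.63 ± 0.140, respectively, which is 3.48-fold higher in the TranspExer group. Whether the exporter gene was above the kinase gene depended on the gene length used. Per kb of annotated exon, *Spns2* was above *Sphk1* in the TranspExer group (mean 3.95 against 2.08 CPM per kb). With the deposited lengths it was below (4.98 against 6.46).

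Of 9 other genes of S1P synthesis, breakdown and transport, 8 were tested, and 1 was an upregulated and 2 were downregulated DEGs. *Sphk2*, the gene of the second sphingosine kinase, rose from 47.2 ± 7.07 to 71.1 ± 1.25 CPM (log2 fold change 0.59, SE 0.11, edgeR adjusted p = 0.00622). *Mfsd2b*, the S1P exporter gene of red cells and platelets, was the upregulated DEG, at 6.98 ± 0.970 and 17.1 ± 1.34 CPM (log2 fold change 1.29, SE 0.13, edgeR adjusted p = 0.000419). Like the 10 genes, the lists were written with earlier results of these samples known, so the adjusted p-values of their genes are not independent evidence.

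The downregulated DEGs of this list were *Mfsd2a* and *Sgpp2*, both at low levels. *Mfsd2a*, which encodes a lysophosphatidylcholine transporter, had 28, 38 and 30 counts in the TranspCtrl samples and 9, 7 and 13 in the TranspExer samples (log2 fold change -1.60, edgeR adjusted p = 0.0066). *Sgpp2*, the gene of an S1P phosphatase, had 23, 21 and 22 counts against 5, 8 and 0 (log2 fold change -2.18, SE 0.63, edgeR adjusted p = 0.0326). This call was lost when TranspCtrl replicate 2, TranspCtrl replicate 3 or TranspExer replicate 1 was left out, with edgeR adjusted p between 0.0659 and 0.0984, and the log2 fold change was -3.02 without TranspExer replicate 2 and -1.57 without TranspExer replicate 3. Its more abundant relative *Sgpp1* (log2 fold change 0.33, edgeR adjusted p = 0.0885) and the S1P lyase gene *Sgpl1* (0.26, 0.0525) did not pass, although both did without TranspCtrl replicate 1 or 2. The less specific exporter genes *Abcc1* and *Abca1* fell by 0.37 and 0.28 on the log2 scale (edgeR adjusted p = 0.00748 and 0.0445), and *Abca1* lost its call when TranspCtrl replicate 2 or 3 or TranspExer replicate 1 or 2 was left out (0.0982 to 0.145) and with the replicate block (0.0595). *Apom*, whose product carries S1P in plasma, had at most 2 counts in any sample.

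The receptors of both lipids comprise a related family (the S1P receptors, *Lpar1*, *Lpar2* and *Lpar3*) and a distant one that holds *Lpar4*, *Lpar5* and *Lpar6*. To show how alike the transcripts are from which receptor reads were counted, a stretch of 58 coding bases is printed for the picked members of the first family, read 5′ to 3′ on the coding strand of GRCm38. Capitals mark a run of 10 bases that S1pr1 to S1pr5 and *Lpar1* all contained. *Lpar2* and *Lpar3*, although of the same family, did not contain it, and neither did the distant LPA receptor genes.
S1pr1 (chr3:115712372-115712429, minus strand): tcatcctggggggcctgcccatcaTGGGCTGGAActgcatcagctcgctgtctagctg
S1pr2 (chr9:20967995-20968052, minus strand): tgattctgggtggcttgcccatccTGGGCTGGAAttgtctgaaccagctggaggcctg
S1pr3 (chr13:51419284-51419341, plus strand): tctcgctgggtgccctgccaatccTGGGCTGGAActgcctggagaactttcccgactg
Lpar1 (chr4:58486686-58486743, minus strand): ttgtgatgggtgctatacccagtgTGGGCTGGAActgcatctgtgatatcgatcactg

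Of these 58 bases, 41 were identical between *S1pr1* and *S1pr2*, 37 between *S1pr1* and *S1pr3*, and 35 between *Lpar1* and *S1pr1*. Over whole coding sequences, identity was 58.47% for *S1pr1* and *S1pr3*, 53.05% for *S1pr1* and *S1pr2*, 55.03% for *Lpar4* and *Lpar6*, and 42.7% for *Lpar1* and *Lpar6*. *Lpar1* was closer to *Lpar2* (55.88%) and *Lpar3* (55.26%) than to *S1pr1* (50.6%). Among all 55 pairs of the 11 receptor genes, the longest shared run was between 9 and 20 bases.

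Of the LPA receptors, *Lpar1* (ENSMUSG00000038668, chr4:58435255-58553898, minus strand) is the widely expressed receptor of mesenchymal cells. Its level was 21.1, 25.9 and 22.9 CPM in the TranspCtrl samples and 18.9, 17.0 and 18.3 CPM in the TranspExer samples. All TranspExer samples lay below the TranspCtrl samples, by a small margin. Means were 23.3 ± 2.39 and 18.1 ± 1.00 CPM, a log2 fold change of -0.37 (SE 0.11), or -0.43 without TranspCtrl replicate 1. *Lpar1* was among the genes lower at the edgeR adjusted p-value alone (0.0324). It lost this call with the replicate block (0.0564) and when any 1 sample other than TranspCtrl replicate 1 was left out (0.0662 to 0.11).

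*Lpar6* (ENSMUSG00000033446, chr14:73237895-73243294, plus strand) and *Lpar4* (ENSMUSG00000049929, chrX:106920625-106933900, plus strand) encode receptors related to purine receptors that couple to G12/13. *Lpar6* was at 39.1, 25.4 and 27.3 CPM in the TranspCtrl samples and 38.1, 39.9 and 33.9 CPM in the TranspExer samples. The groups overlapped because TranspCtrl replicate 1 was as high as the TranspExer samples. Means were 30.6 ± 7.42 and 37.3 ± 3.06 CPM, and the log2 fold change was 0.29 (SE 0.16), against 0.50 (SE 0.08) without that sample, so this value rested on 1 library. *Lpar6* lies inside *Rb1*, on the other strand, with 408 shared exon bases, and *Rb1* had between 1001 and 1440 counts per sample. *Lpar4* was at 7.23, 8.37 and 8.18 CPM against 8.63, 8.02 and 7.95 CPM. Its groups overlapped, with means of 7.93 ± 0.613 and 8.20 ± 0.376 CPM and a log2 fold change of 0.05 (SE 0.12) that turned to -0.04 when samples were scaled by library size only and to -0.01 without TranspCtrl replicate 1.

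Of the other LPA receptors, *Lpar5* had 4.39 ± 1.34 and 6.50 ± 0.378 CPM (log2 fold change 0.57, SE 0.23, edgeR adjusted p = 0.0883) and *Lpar2* a log2 fold change of 0.24 (SE 0.21, adjusted p = 0.391), so neither passed. Without TranspCtrl replicate 1 these log2 fold changes were 0.34 and 0.11. *Lpar3* was not tested, with 7, 1 and 3 counts in the TranspCtrl samples and 0, 0 and 1 in the TranspExer samples.

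Among S1P receptors, *S1pr1* (ENSMUSG00000045092, chr3:115710433-115715072, minus strand) couples to Gi and guides lymphocyte exit and vessel barrier function. Its level was 130.0, 141.6 and 134.7 CPM in the TranspCtrl samples and 148.2, 148.4 and 148.9 CPM in the TranspExer samples. The TranspExer samples were nearly identical and all lay above the TranspCtrl samples, by little. Means were 135 ± 5.84 and 148.5 ± 0.366 CPM, a log2 fold change of 0.13 (SE 0.07), or 0.10 without TranspCtrl replicate 1 and 0.05 when samples were scaled by library size only.

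*S1pr2* (ENSMUSG00000043895, chr9:20962361-20976781, minus strand), whose product also couples to G12/13 and restrains cell migration, differed more. It was at 52.2, 56.5 and 51.6 CPM in the TranspCtrl samples and 74.4, 74.3 and 80.7 CPM in the TranspExer samples. All TranspExer samples were above all TranspCtrl samples, and the gap exceeded the range within either group. Means were 53.4 ± 2.64 and 76.5 ± 3.67 CPM, a log2 fold change of 0.52 (SE 0.08), or 0.50 without TranspCtrl replicate 1.

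*S1pr3* (ENSMUSG00000067586, chr13:51408639-51422797, plus strand), which signals through Gi, Gq and G12/13, was at 45.1, 54.3 and 55.1 CPM against 46.9, 47.2 and 49.3 CPM. The groups overlapped, with TranspCtrl replicate 1 the lowest of all samples. Means were 51.5 ± 5.54 and 47.8 ± 1.33 CPM, a log2 fold change of -0.11 (SE 0.09), or -0.19 without that sample. Within each sample, the ratio of *S1pr2* to *S1pr1* counts was 0.402, 0.399 and 0.383 in the TranspCtrl samples and 0.502, 0.500 and 0.542 in the TranspExer samples. The balance between the receptors was therefore shifted toward *S1pr2* in every TranspExer sample. For *S1pr3* to *S1pr1* the ratio was 0.347, 0.383 and 0.409 against 0.316, 0.318 and 0.331, lower in each TranspExer sample. Beyond the picked receptors, *S1pr4*, a receptor gene of leukocytes, rose from 7.71 ± 1.10 to 11.1 ± 1.21 CPM (log2 fold change 0.52, SE 0.15, edgeR adjusted p = 0.0282). This call was lost without TranspCtrl replicate 2, TranspExer replicate 1 or TranspExer replicate 3 (adjusted p between 0.0729 and 0.106) and under library-size scaling (0.0503). *S1pr5* had at most 2 counts in any sample.

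Levels of different genes were compared as CPM per kb of annotated exon. *S1pr1* was the most abundant of the 10 genes on this scale, at 44.5 ± 1.92 and 48.8 ± 0.120 CPM per kb in the TranspCtrl and TranspExer groups. In the TranspCtrl group *S1pr3* (11.5 ± 1.24), *Plpp3* (8.32 ± 1.58), *Enpp2* (7.61 ± 0.746), *S1pr2* (6.70 ± 0.331), *Lpar6* (5.66 ± 1.37) and *Lpar1* (5.43 ± 0.558) followed. From *Plpp3* to *Lpar1*, the SD ranges of neighbors in this order overlapped. Lower and apart from each other came *Sphk1* (2.69 ± 0.306), *Lpar4* (1.87 ± 0.145) and *Spns2* (1.46 ± 0.104). In the TranspExer group the order changed, with *Plpp3* second at 16.3 ± 0.114 CPM per kb, followed by *S1pr3* (10.7 ± 0.299), *S1pr2* (9.59 ± 0.461) and *Lpar6* (6.91 ± 0.566). *Lpar1* (4.21 ± 0.234) and *Spns2* (3.95 ± 0.433) overlapped within their SDs, as did *Sphk1* (2.08 ± 0.170) and *Lpar4* (1.93 ± 0.0887), and *Enpp2* was the lowest at 0.917 ± 0.0350. For the 5 genes whose lengths differ between sources (*Enpp2*, *Lpar1*, *S1pr2*, *Sphk1* and *Spns2*), the places depended on the length used. With its longest transcript (3095 bases) in place of all exons (5779 bases), *Enpp2* was at 14.2 and 1.71 CPM per kb in the TranspCtrl and TranspExer groups, above *S1pr3* in the TranspCtrl group. With the longest transcript, *S1pr2* (11.96) came before *S1pr3* in the TranspExer group, and *Lpar1* (6.58) before *Lpar6* in the TranspCtrl group. With the deposited length (1537 in place of 4774 bases), *Sphk1* was at 8.37 and 6.46 CPM per kb and no longer beside *Lpar4* and *Spns2*.

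By their share of all LPA receptor levels per kb, *Lpar6* and *Lpar1* held 34.7% ± 8.70 and 33.2% ± 2.81 in the TranspCtrl group. *Lpar6* was above *Lpar1* only in TranspCtrl replicate 1 (44.49% against 30.32%), and below it in replicate 2 (27.97% against 35.93%) and replicate 3 (31.5% against 33.24%). In the TranspExer group the shares were 38.6% ± 2.41 and 23.6% ± 1.57. *Lpar5* held 17.7% ± 5.22 and 24.03% ± 1.62, with 11.69%, 21.39% and 19.89% in the TranspCtrl samples, where replicate 1 was the lowest. *Lpar4* held 11.4% ± 0.822 and 10.8% ± 0.473. Among S1P receptors *S1pr1* held most of the level in both groups, at 67.4% ± 1.13 and 66.2% ± 0.911. The share of *S1pr2* was 10.2% ± 0.431 and 13.0% ± 0.437, and that of *S1pr3* 17.5% ± 1.16 and 14.5% ± 0.226. All shares used the length of all annotated exons, and their order depended on it. With the longest transcript, *S1pr2* was above *S1pr3* in the TranspExer group (11.96 against 10.7 CPM per kb). In the TranspCtrl group *Lpar1* was then above *Lpar6* (6.58 against 5.66).

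**Figure D3:**
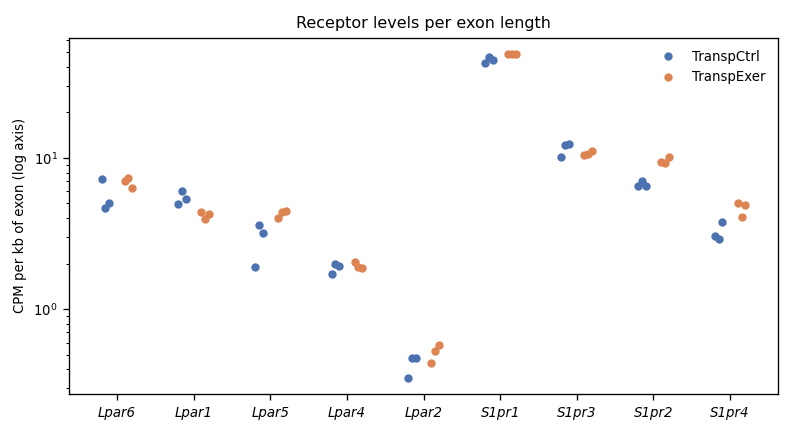
CPM per kb of exon (vertical log axis) of the LPA receptor genes (left 5) and S1P receptor genes (right 4) that passed the low-count filter, with each TranspCtrl sample in blue and each TranspExer sample in orange. *S1pr1* stood above all other receptors in both groups, and *S1pr2* and *Lpar1* separated the groups in opposite directions.

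To find genes whose profile over the 6 samples was most like that of a receptor, distances were computed between log2 CPM values centred on each gene's mean, over 9666 genes with a mean of at least 10 CPM. For *S1pr1* the closest were *Ube2l3* (distance 0.0323), *Zdhhc4* (0.0534) and *Gpatch8* (0.0547), and for *S1pr2* they were *Idua* (0.0443), *Chaf1b* (0.0449) and *Slc25a22* (0.0769). *S1pr3* was closest to *Gtf2ird1* (0.0544), *Rfx7* (0.0553) and *P4hb* (0.0588). *Plpp3* was closest to *Tspan9* (0.105), *Dtx4* (0.117) and *Lrrc8c* (0.131). These distances describe likeness in 6 samples of 2 groups and carry no test.

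Sequences before the transcription start were available for 8 of the 10 genes from RefSeq (GRCm38.p6), with no entry for *Enpp2* and *S1pr1*. The windows of the genes that were higher in all TranspExer samples are shown, each as the 250 bases before the start on the gene's strand, to let their letters be compared. Capitals mark a motif found on either strand.
Plpp3 (chr4:105157097-105157346, plus strand): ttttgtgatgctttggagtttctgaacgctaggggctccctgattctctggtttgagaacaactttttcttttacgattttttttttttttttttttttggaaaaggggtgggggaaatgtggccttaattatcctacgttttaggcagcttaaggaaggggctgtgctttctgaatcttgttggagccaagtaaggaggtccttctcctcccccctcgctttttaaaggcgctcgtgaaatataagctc
Spns2 (chr11:72475028-72475277, minus strand): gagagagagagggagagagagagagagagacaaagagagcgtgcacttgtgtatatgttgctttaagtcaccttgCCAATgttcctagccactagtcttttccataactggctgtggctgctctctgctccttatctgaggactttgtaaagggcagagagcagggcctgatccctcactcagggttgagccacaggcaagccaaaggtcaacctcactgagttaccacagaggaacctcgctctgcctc
S1pr2 (chr9:20976794-20977043, minus strand): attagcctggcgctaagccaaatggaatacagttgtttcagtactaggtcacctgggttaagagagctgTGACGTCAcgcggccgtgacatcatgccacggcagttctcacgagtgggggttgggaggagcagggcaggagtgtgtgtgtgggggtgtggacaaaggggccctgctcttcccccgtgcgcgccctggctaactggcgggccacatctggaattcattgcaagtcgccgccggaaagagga

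The motifs searched on both strands, none of which contains another, were the TATA box (letters TATAAA), the CCAAT box (letters CCAAT), the GC box (letters GGGCGG), the cAMP response element (letters TGACGTCA), the TEAD site (letters GGAATG) and the E-box (letters CACGTG). The *S1pr2* window held the cAMP response element at -181 from the start, a motif in 1.546% of 32851 windows of this length. *Spns2* held CCAAT at -175, found in 33.85% of all windows, and *Plpp3* held none of the motifs. GC content was 42.4%, 51.6% and 59.2% for *Plpp3*, *Spns2* and *S1pr2*, against a median of 52.4% over all windows. The *Spns2* start lies 14877 bases inside the annotated gene. That the windows shared no motif says only that none of the searched letters occurred in all 3.

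Genes of ceramide metabolism and targets of SRF and YAP, transcriptional regulators that respond to these receptors, were taken from further lists. Of 17 tested SRF and YAP target genes, 6 were higher and 5 lower at the adjusted p-value alone (16.6% and 15.5% over all tested genes), with a median log2 fold change of 0.03. The only DEG among them was *Cnn1*, the contractile protein gene calponin 1, which fell from 45.4 ± 6.15 to 18.4 ± 2.28 CPM (log2 fold change -1.30, SE 0.13, edgeR adjusted p = 0.000372). Of 24 tested genes of ceramide metabolism, the pathway that supplies sphingosine, none was a DEG, and 4 were higher and none lower at the adjusted p-value alone. These 4 were *Cerk* (log2 fold change 0.66), *Acer3* (0.67), *Cers2* (0.45) and *Degs1* (0.35), and they are named because the count is small, after their values were seen. *Degs1* lost its call without TranspCtrl replicate 3, TranspExer replicate 1 or TranspExer replicate 2 (adjusted p between 0.0577 and 0.0777) and under library-size scaling (0.0517). Over all 108 listed pathway genes, which include 1 list not described here, 97 were tested, with 5 upregulated and 4 downregulated DEGs, 32 higher and 14 lower at the adjusted p-value alone, and a median log2 fold change of 0.24. Without TranspCtrl replicate 1 the DEG counts were again 5 and 4.

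The labelled cell type was examined with marker genes, since cultured marrow can hold several cell types and the 10 genes are used by many of them. Stromal markers were present in both groups, summing to between 11411 and 19219 CPM in the TranspCtrl samples and between 12311 and 13553 in the TranspExer samples. Of 10 stromal markers, none was upregulated and 2 (*Pdgfra* and *Nt5e*) were downregulated DEGs. At the adjusted p-value alone 6 were lower, in the direction of *Enpp2*, and 1 higher, with a median log2 fold change of -0.46. *Pdgfra*, a receptor gene of stromal progenitors, fell by 1.00 on the log2 scale (edgeR adjusted p = 7.67e-05) and *Cxcl12*, the niche chemokine gene, by 0.46 (0.0051), whereas *Pdgfrb*, the 1 that was higher, rose by 0.39 (0.0237), a call lost without TranspCtrl replicate 3, TranspExer replicate 2 or TranspExer replicate 3. Macrophage markers (3529 to 4227 and 3984 to 4100 CPM) and neutrophil markers (2895 to 4083 and 3801 to 4170 CPM) were abundant in both groups, with no DEG among 8 of each. At the adjusted p-value alone 2 macrophage markers were higher and 1 lower, and 1 neutrophil marker was higher and 2 lower. *Cd68*, a lysosomal protein gene of macrophages, rose by 0.78 on the log2 scale (edgeR adjusted p = 0.000377) and *Mertk*, the gene of a receptor for dying cells, by 0.71 (0.000735). The mannose receptor gene *Mrc1* fell by 0.33 (0.0159), a call lost without TranspExer replicate 1 or 2 (0.067 and 0.0746).

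Endothelial markers moved in the same direction as *Spns2*, *Plpp3* and *S1pr2*. Of 10 tested, 8 were upregulated DEGs and none downregulated, and their summed level was between 218 and 260 CPM in the TranspCtrl samples and between 680 and 732 CPM in the TranspExer samples. *Cdh5*, the gene of the endothelial cadherin, rose by 2.02 on the log2 scale (edgeR adjusted p = 0.00023), *Kdr* by 1.55 (7.57e-05) and *Pecam1* by 0.87 (0.000121). *S1pr1* differed by 0.13 over the same samples, and the part of endothelial cells in the values of the 10 genes was not tested. Of 5 megakaryocyte markers, 3 were upregulated DEGs, in the direction of *Mfsd2b*, and the list summed to 249 to 312 and 451 to 482 CPM. The platelet chemokine gene *Pf4* (log2 fold change 0.02, edgeR adjusted p = 0.948) and *Gp9* (0.69, 0.0502) did not pass, although both did without TranspCtrl replicate 1 (0.0089 and 0.00771). Of the erythroid markers, 4 of 5 were too low to be tested. The tested one, the erythropoietin receptor gene *Epor*, was an upregulated DEG, with 35, 23 and 43 counts in the TranspCtrl samples and 91, 73 and 70 in the TranspExer samples (log2 fold change 1.34, edgeR adjusted p = 0.00492).

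Of 8 markers of B and plasma cells, 6 were downregulated DEGs, in the direction of *Enpp2*, while the transcription factor genes *Pax5* (log2 fold change -0.35, edgeR adjusted p = 0.0718, or 0.000299 without TranspCtrl replicate 1) and *Ebf1* (-0.01, 0.976) did not pass. The sum of the list was between 1588 and 1965 CPM in the TranspCtrl samples and between 418 and 441 CPM in the TranspExer samples. Of the osteoblast markers, 3 of 4 tested were downregulated DEGs, with sums of 141 to 172 and 63.4 to 71.95 CPM, and *Bglap* was at or under the floor. *Dmp1*, too low to be tested, went the other way, with 6, 2 and 7 counts in the TranspCtrl samples and 10, 16 and 13 in the TranspExer samples. *Sp7*, 1 of the osteoblast DEGs, fell by 1.07 on the log2 scale (edgeR adjusted p = 0.00108). The largest fall of the list was that of *Ibsp*, a bone matrix protein gene, by 2.96. T and NK cell markers were low, at 54.8 to 57.7 and 75.0 to 80.7 CPM, with 1 upregulated and 1 downregulated DEG of 6. Of 6 adipocyte markers, *Lep*, *Cidec*, *Cfd* and *Retn* were at or under the floor, and the whole list summed to at most 3.25 CPM in any sample. Of the 2 tested, *Plin1*, the gene of a lipid droplet coat protein, was an upregulated DEG (edgeR adjusted p = 0.00146), with 0, 0 and 3 counts in the TranspCtrl samples and 25, 34 and 31 in the TranspExer samples, and *Adipoq* was not (adjusted p = 0.414). Over all marker lists, 14 genes were upregulated and 12 downregulated DEGs, and without TranspCtrl replicate 1 these counts were 15 and 13. The part of these cell types in the values of the 10 genes was not tested. In such bulk cultures, fewer cells of a type and less RNA per cell cannot be told apart.

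**Figure D4:**
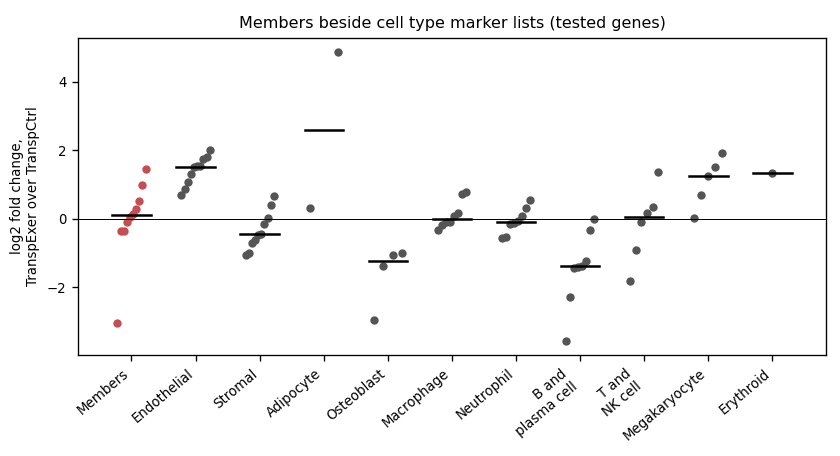
Log2 fold change, TranspExer over TranspCtrl (vertical axis), of the 10 picked genes (red) and of each tested marker gene (grey) by cell type list, with a bar at the median of each list. The picked genes spread from -3.05 to 1.44 around a median of 0.09, endothelial markers lay around 1.52, and B and plasma cell markers around -1.40.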

How the data were processed

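RNA-Seq of BM MSCs from 3 TranspCtrl and 3 TranspExer samples was used, grouped by the sample labels. The authors deposited expected counts (estimated read counts per gene, not normalized), of which between 10.06% and 12.18% per sample were not whole numbers, and all were rounded here. A deposited column of gene lengths served only as an alternative length. The build mm10 is given in the submitters' processing notes, and the aligner, counter, strand setting and annotation are not given in the sources used here. The labels name a stranded mRNA kit, whereas the methods name a TruSeq kit. Total counts had a median of 19577988 per sample.

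The picked genes and all gene lists were chosen with earlier results of these data known. Differential expression was tested with edgeR 4.0.16 in R 4.3.3 (filterByExpr, TMM, quasi-likelihood test, no covariate). P-values of the 15190 genes were adjusted by Benjamini-Hochberg. The DEG thresholds, taken from the study's methods, were 0.05 for the adjusted p-value and 2 for the fold change in either direction. Genes named were the 10 picked genes, every receptor, kinase, lyase, phosphatase and transporter of both lipids, up to 4 DEGs of longer lists, the 3 genes most alike for the 4 most abundant picked genes, overlapping genes, and up to 3 leading markers per list, and genes outside this rule were named after their values were seen. Gene positions, exon lengths and coding sequences came from GENCODE M21 (GRCm38), and coding sequences were aligned with Biopython 1.88. Log2 CPM used a prior count of 2.

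The alternatives were DESeq2 1.42.0, upper-quartile and library-size scaling, no filter or a filter of 1 CPM in 3 samples, the replicate block, each sample left out in turn and other gene lengths, of which the deposited length was added after the data were seen. On simulated data with 200 of 15036 genes changed by 1.5 on the log2 scale, edgeR recovered 95.5% and DESeq2 94% of them. The values of 1 further gene list are not reported here.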

Additional observations from a re-analysis of the deposited data

How the results depend on the processing

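Of the 10 picked genes, 1 was an upregulated DEG, and leaving out each sample in turn gave between 1 and 2, since *Plpp3* passed the fold threshold without TranspCtrl replicate 2 or 3. Among the picked genes only *Lpar4*, near 0 throughout, changed sign. Of 120 log2 fold changes of the picked genes under the alternatives, 116 moved by less than the SD of log2 CPM between replicates, pooled over both groups, and the other 4 were *S1pr1* (0.05 under upper-quartile and library-size scaling) and *S1pr2* (0.43 to 0.44). Within that SD, which includes TranspCtrl replicate 1, leaving out that sample still moved *Lpar6* from 0.29 to 0.50 and *S1pr3* from -0.11 to -0.19. At the adjusted p-value alone, between 3 and 4 of the picked genes were higher and between 1 and 3 lower over all alternatives. Of the lower ones, only *Enpp2* was called in all of them, and *Lpar1*, *Sphk1* and *S1pr3* in some. For the 5 other DEGs named from the pathway lists, 57 of 60 values kept call and direction and 3 lost the call, all for *Sgpp2*. For the other named pathway genes, by the adjusted p-value alone, 287 of 323 values kept side and direction, 21 lost and 12 gained the call, and *Plpp1*, never called, turned to -0.0417 under upper-quartile and -0.0488 under library-size scaling and ranged from -0.0390 to 0.0763 with samples left out. For named marker genes 191 of 215 did, 5 lost and 8 gained the call, and 2 uncalled genes changed sign. These were *Pf4* (-0.0709 and -0.0792 under these scalings, -0.0130 with the 1 CPM filter, and -0.110 to 0.263 with samples left out) and *Ebf1* (0.00862 with the replicate block, and -0.162 to 0.122 with samples left out). All 10 levels per kb whose gene length differed between sources moved by more than the spread between samples. The replicate numbers of the labels did not pair the samples, with correlations of 0.0247, -0.00167 and 0.0416 between equal numbers, and with the replicate block 519 genes were upregulated and 767 downregulated, against 531 and 802. Without a low-count filter these counts were 603 and 946, and with DESeq2 522 and 777. *Sgpp2*, *Mfsd2a* and *Lpar3* rested on at most 38 counts in any sample, which limits their precision. How reads of exon bases that *Lpar6* shares with *Rb1*, and *Spns2* with *Mybbp1a*, were assigned is not given in the sources used here.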
